A study of Sus scrofa with 6 samples.

Results

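The transcripts of the mitochondrial genome were described in the longissimus dorsi (LD), a back muscle, of 6 Laiwu pigs. Every row of the deposited transcript table that lies on the mitochondrial chromosome (MT, pig assembly Sscrofa11.1) was taken, which gave 38 of 83119 rows. Of these, 37 were annotated genes, out of 31908 genes in the table, and all 37 matched a RefSeq gene of the same assembly by first and last base: 13 mRNA genes, 2 rRNA genes and 22 tRNA genes. The remaining row, TCONS_00294274, was a transcript assembled by the authors over MT:6511-14755. Laiwu is a Chinese breed with much intramuscular fat (IMF), and the study compared castrated males with extremely high IMF (S-H: LW63, LW70 and LW119) with castrated males with extremely low IMF (S-L: LW82, LW88 and LW90), as its methods describe. No treatment was named, age was not given in the sources used here, and each pig gave 1 RNA library depleted of ribosomal RNA. Levels are in FPKM, sequenced fragments scaled to the length of the transcript and the size of the library. Values for the 6 pigs are always given in the order LW63, LW70 and LW119, then LW82, LW88 and LW90.

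The mitochondrial genome is a small circle that is present in many copies per cell. Its mRNAs encode core subunits of the respiratory chain complexes I, III and IV and of ATP synthase (complex V), and its rRNAs and tRNAs serve the ribosomes that translate them inside the organelle. Both strands are transcribed into long precursors, and most mRNAs and rRNAs are released where tRNAs are cut out between them. Nearly all mRNAs come from one strand, and ND6 comes from the other. All other subunits, and all proteins that copy, process and translate mitochondrial RNA, are encoded in the nucleus. Skeletal muscle, above all its slow oxidative fibres, is rich in mitochondria.

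Muscle markers were abundant in all pigs, with MYLPF, the regulatory light chain of fast fibre myosin, at a mean of 10107 FPKM and the skeletal muscle actin ACTA1 between 448 and 1731 FPKM. Read counts were not used and the depth of single values is thus unknown. Precision is given by the spread between 3 pigs per group, and tests measure only the spread between these animals. The nuclear genome of mammals also holds copies of mitochondrial sequence, and the levels of genes that overlap each other or such copies are uncertain. Abundant structural RNAs (the RNA parts of RNase P, RNase MRP and the signal recognition particle) took between 46.6% and 64.7% of the summed FPKM of a pig. Values expressed relative to the summed FPKM therefore depend on them. In whole muscle, fewer cells of a type and less RNA per cell cannot be told apart.

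COX1 and COX2 dominated the mitochondrial transcripts by listed level. When each FPKM value was multiplied by the length of its gene, the 37 annotated genes accounted for 3.05, 4.64, 2.01, 3.31, 2.98 and 2.67% of all fragments, highest in LW70 and lowest in LW119, both S-H pigs. The groups overlapped (3.23% ± 1.33 in S-H and 2.99% ± 0.320 in S-L, SD, n = 3 each, exact two-sided permutation test, p = 0.9, adjusted p = 0.9 over 2 such shares). Of the 13 mRNAs, 11 had a mean of at least 1 FPKM and 7 of at least 100 FPKM. The order along the genome did not follow the order of levels, and neighbouring genes differed by several orders of magnitude.

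**Figure D1:**
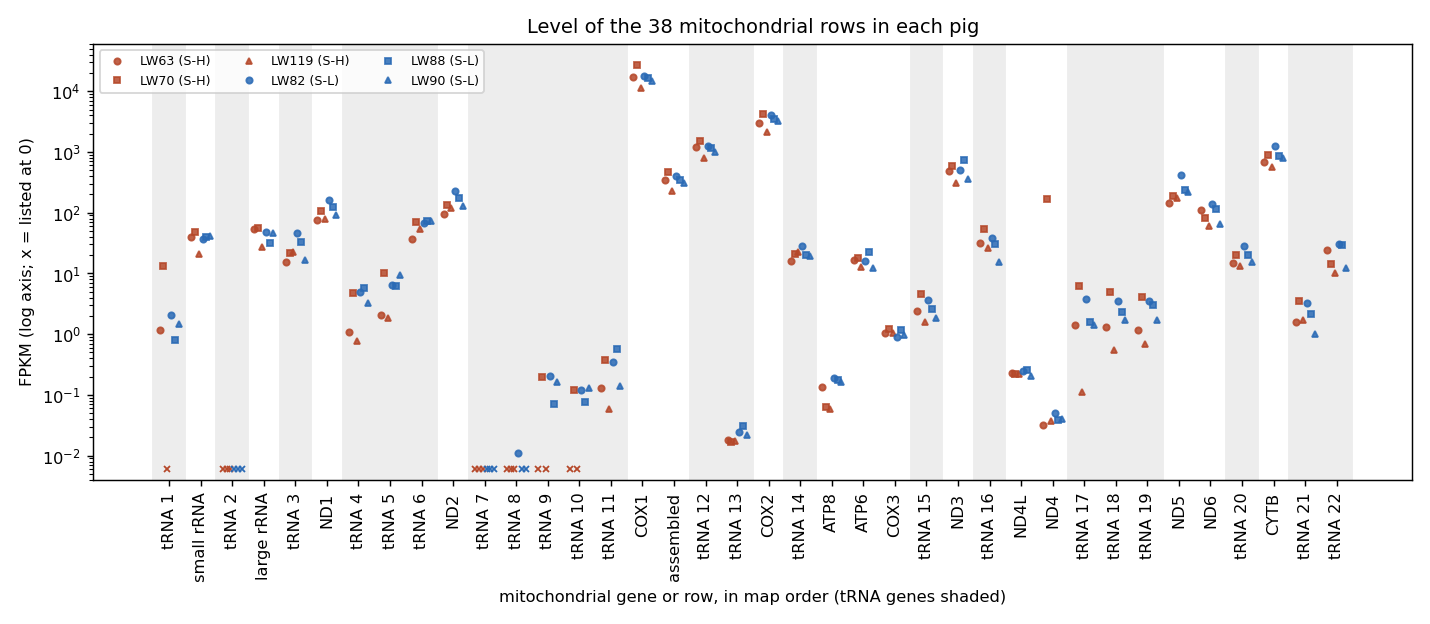
Level in FPKM (log axis) of the 38 mitochondrial rows in each of the 6 pigs, in map order, with tRNA genes shaded and crosses for values listed at 0. COX1 is at the top of every pig, between 11107 and 26622 FPKM, and ND4 stands at 171 FPKM in LW70 and below 0.1 FPKM in the other pigs.

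Complex IV, cytochrome c oxidase, passes electrons to oxygen, and COX1 is its catalytic subunit. COX1 (MT:6511-8055) was at 17344, 26622 and 11107 FPKM in S-H and at 17631, 16293 and 14629 FPKM in S-L, which placed it at rank 4 of all 31908 genes by mean level. The S-H pigs held both the highest and the lowest value, 2.40-fold apart, while the S-L pigs lay between them. COX2 (MT:8203-8890), the subunit that receives electrons from cytochrome c, was at 2985, 4270 and 2095 FPKM in S-H and at 4130, 3487 and 3248 FPKM in S-L, at rank 13. Here too LW70 was highest and LW119 lowest. COX3 (MT:9800-10583), the third core subunit of the same enzyme, was listed at 1.03, 1.20, 1.04, 0.915, 1.153 and 0.959 FPKM. It varied only 1.31-fold over the 6 pigs, but its listed level was between 2012 and 4514 times lower than that of COX2 in the same pig. COX1, COX2 and COX3 all lie inside the span of the assembled transcript described below. How reads were shared between these rows was not tested.

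CYTB (MT:15342-16481), cytochrome b, is the only subunit of complex III encoded in the mitochondrion. Its level was 674, 875 and 572 FPKM in S-H and 1265, 854 and 803 FPKM in S-L, at rank 59 of all genes. LW82 was highest, and LW70 lay within the range of the S-L pigs.

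The 7 ND genes encode subunits of complex I, NADH dehydrogenase, and covered the widest range. ND3 (MT:10653-10998) was at 486, 587 and 313 FPKM in S-H and at 509, 751 and 362 FPKM in S-L. ND2 (MT:5087-6128) was at 94.6, 133 and 122 FPKM in S-H and at 229, 175 and 130 FPKM in S-L, and ND1 (MT:3922-4876) at 77.0, 105 and 78.1 FPKM in S-H and at 161, 123 and 93.4 FPKM in S-L. In ND1 and ND2 the order of the S-L pigs was the same, with LW82 above LW88 and LW90, and only LW90 lay within the S-H range. ND6 (MT:14739-15266), the mRNA of the other strand, was at 112, 81.3 and 61.0 FPKM in S-H and at 141, 115 and 65.0 FPKM in S-L. ND4L (MT:11069-11365) was listed between 0.203 and 0.258 FPKM in all 6 pigs, a 1.27-fold range.

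ND4 (MT:11359-12736) was the mRNA with the largest spread between pigs. It was listed at 171 FPKM in LW70 and at 0.0320, 0.0366, 0.0498, 0.0380 and 0.0399 FPKM in LW63, LW119, LW82, LW88 and LW90. Thus 1 S-H pig stood alone and the other 5 pigs were close to 0. The 3 tRNA genes that follow ND4 were also highest in LW70, at 6.29, 4.92 and 4.09 FPKM. In these genes LW82 came next, at 3.74, 3.54 and 3.53 FPKM, although its ND4 was close to 0.

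ND5 (MT:12935-14755) had 2 rows. The annotated transcript was at 144, 187 and 178 FPKM in S-H and at 413, 236 and 223 FPKM in S-L, so that every S-L pig lay above every S-H pig. The assembled transcript TCONS_00294274, which carries the gene identifier of ND5, was at 340, 465 and 224 FPKM in S-H and at 409, 347 and 309 FPKM in S-L, and its groups overlapped. Added together, the rows gave 483, 653 and 402 FPKM in S-H and 822, 583 and 531 FPKM in S-L, which overlapped in LW70.

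The assembled transcript starts at the first base of COX1 and ends at the last base of ND5. Its span of 8245 bases holds 17 annotated genes, 9 mRNAs and 8 tRNAs, among them COX3, ATP8, ND4L and ND4, which were the 4 lowest mRNAs in every pig but LW70. COX1, COX2 and ND3, which had high levels, also lie inside it. Reads in this region can be assigned to more than one row, the exons of the assembled row were not given in the sources used here, and the part of this row in the levels of the genes inside it was not tested.

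ATP6 (MT:9120-9800) and ATP8 (MT:8959-9162) encode subunits of the membrane part of ATP synthase, and the genes overlap. ATP6 was at 16.5, 17.7 and 12.8 FPKM in S-H and at 15.99, 22.5 and 12.2 FPKM in S-L. ATP8 was listed far lower, at 0.137, 0.0625 and 0.0596 FPKM in S-H and at 0.190, 0.173 and 0.166 FPKM in S-L, with every S-L pig above every S-H pig. The ratio of ATP8 to ATP6 was between 0.00353 and 0.0136, and its groups overlapped (exact two-sided permutation test, p = 0.2, adjusted p = 0.6 over 6 ratios).

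**Figure D2:**
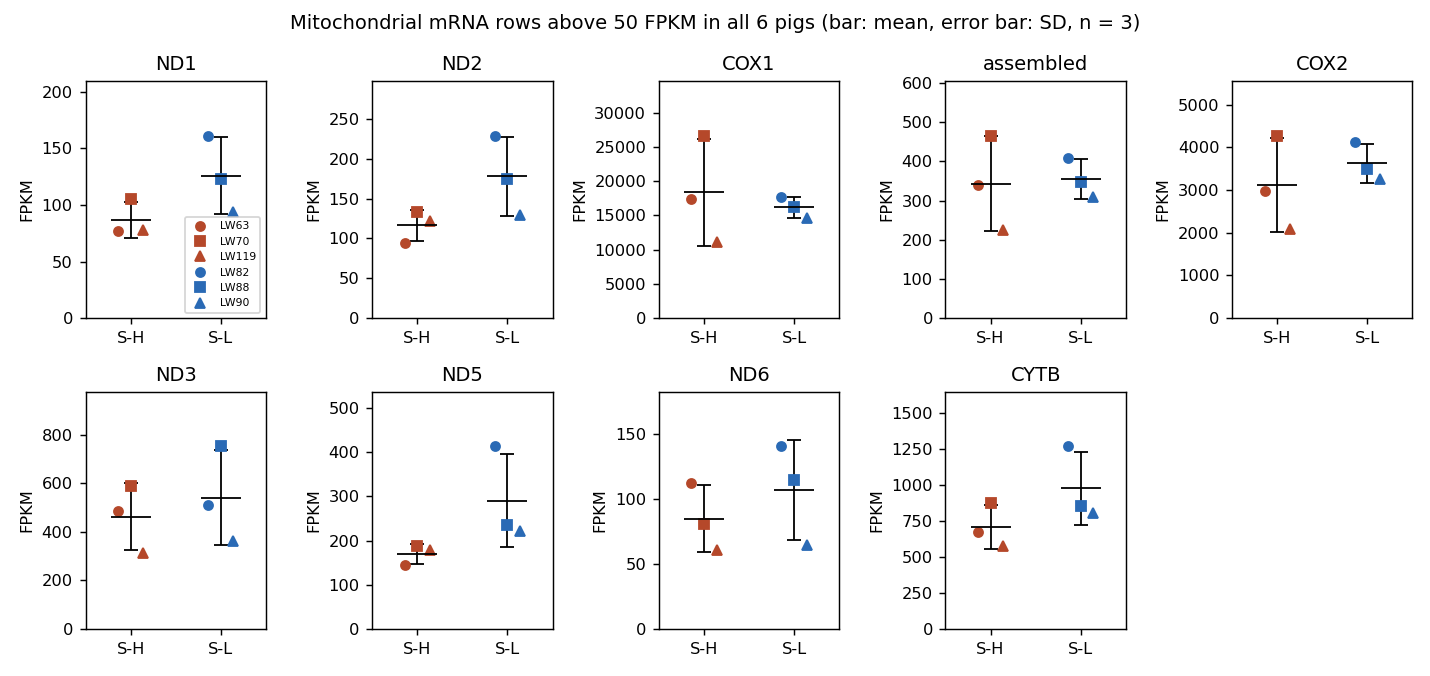
Level in FPKM of the 8 annotated mRNAs and the assembled row that were above 50 FPKM in all 6 pigs, with the mean and SD of each group (n = 3). The annotated ND5 row is the 1 panel in which no S-H pig reaches the S-L pigs (highest S-H value 187 FPKM, lowest S-L value 223 FPKM).

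The 2 rRNA genes were moderate after the depletion of ribosomal RNA, and how far that step removed them was not tested. The small-subunit rRNA (MT:1246-2205, 960 bases) was at 39.4, 48.5 and 20.8 FPKM in S-H and at 37.2, 39.2 and 40.7 FPKM in S-L. The large-subunit rRNA (MT:2274-3844, 1571 bases) was at 54.6, 56.1 and 27.2 FPKM in S-H and at 47.5, 31.2 and 46.0 FPKM in S-L. Both were highest in LW70 and lowest in LW119, and they were told apart here by their length. Their summed level was 82.2 ± 30.1 FPKM in S-H and 80.6 ± 8.90 FPKM in S-L (SD, n = 3), and the ratio of the large to the small rRNA was 1.28 ± 0.117 and 1.07 ± 0.247 (exact two-sided permutation test, p = 0.2, adjusted p = 0.6 over 6 ratios).

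The tRNA genes are numbered here from 1 to 22 along the map, because the tables used do not name their amino acids. They are 59 to 75 bases long, shorter than the fragments kept for sequencing, and this size selection works against free tRNAs. The levels given for tRNA genes are thus those of reads over the genes, by this design mostly from longer transcripts that cover them. They are not levels of mature tRNA, and how much free tRNA remained was not tested. Of the 22 genes, 16 were above 0 in all 6 pigs, 4 in some pigs, and 2, tRNA 2 (MT:2206-2273) and tRNA 7 (MT:6129-6196), were listed at 0 in every pig. A mean of at least 1 FPKM was reached by 15 genes, at least 10 FPKM by 7 genes and at least 100 FPKM by 1 gene.

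That gene was tRNA 12 (MT:8059-8129), which lies 3 bases after COX1 and ranked 43 among all genes. It was at 1223, 1494 and 808 FPKM in S-H and at 1246, 1148 and 997 FPKM in S-L, in the same order of pigs as COX1 at both ends, with LW70 highest and LW119 lowest. The next gene on the map, tRNA 13 (MT:8135-8202), which abuts COX2, was listed only between 0.0168 and 0.0308 FPKM. Between them lie 5 bases, and the level of tRNA 12 was between 37262 and 88890 times that of tRNA 13 in the same pig. After tRNA 12, the highest levels were those of tRNA 6 (MT:5017-5086), the gene before ND2, at 37.5, 69.9 and 53.3 FPKM in S-H and at 67.7, 74.2 and 71.7 FPKM in S-L, where only LW70 came within the S-L range. Next was tRNA 16 (MT:11000-11068), between ND3 and ND4L, with a mean of 37.1 ± 14.5 FPKM in S-H and 27.9 ± 11.5 FPKM in S-L (SD, n = 3).

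The 5 tRNA genes between ND2 and COX1, tRNA 7 to tRNA 11, were all low, and none exceeded 0.575 FPKM in any pig. Within this cluster tRNA 9 and tRNA 10 were listed at 0 in LW63 and LW119 and above 0 in the other 4 pigs. At the start of the map, tRNA 1 (MT:1176-1245) was at 13.1 FPKM in LW70, was listed at 0 in LW119 and lay between 0.795 and 2.09 FPKM elsewhere. LW70 was thus the pig with the highest level not only for ND4 but for 9 of the 20 tRNA genes above 0 in any pig.

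Summed over a class, LW70 was highest and LW119 lowest for mRNA, rRNA and tRNA alike, but gene by gene LW82 was often the highest pig. Of the 13 mRNAs, 6 were highest in LW82, 4 in LW70 and 3 in LW88, and 6 were lowest in LW119 and 4 in LW63. Of the 20 tRNA genes above 0 in any pig, 9 were highest in LW70 and 6 in LW82, and 11 were lowest in LW119 and 6 in LW63, counting a pig at 0 as lowest (the first in the order of pigs where several were at 0). Relative to the mean of the 6 pigs on the log2 scale, the median mRNA deviated by -0.02, 0.10 and -0.51 in S-H and by 0.33, 0.17 and -0.14 in S-L. The summed mRNA level, with the assembled row included, was 22273, 33516 and 14763 FPKM in S-H and 24906, 22405 and 19875 FPKM in S-L. It spread 2.27-fold, and the group means did not differ beyond this spread (exact two-sided permutation test, p = 0.9, adjusted p = 1.0 over 4 sums). Without COX1 the sum was 5160 ± 1631 FPKM in S-H and 6211 ± 1018 FPKM in S-L (SD, n = 3, exact two-sided permutation test, p = 0.4, adjusted p = 1.0). The sum of the tRNAs was 1362 ± 392 FPKM in S-H and 1356 ± 174 FPKM in S-L, and the ratio of tRNA to mRNA stayed between 0.0521 and 0.0653 in the 6 pigs. Both values mostly describe tRNA 12, which made up between 82.1% and 89.0% of the tRNA sum, and without it the sum was 187 ± 57.6 FPKM in S-H and 225 ± 49.1 FPKM in S-L (SD, n = 3).

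To ask whether single mitochondrial genes differed with IMF, all genes of the table with a mean of at least 0.1 FPKM were fitted together with limma on log2(FPKM + 0.1), which understates the change of low genes. Of the 37 mitochondrial genes, 32 reached this mean and were tested: 13 mRNAs, 2 rRNAs and 17 tRNAs. A gene was called when its unadjusted p was below 0.01 and its level differed at least 2-fold (a log2 fold change of at least 1 in size). None of the 32 was called, against 1.25% of all 16333 genes tested, of which 0.931% were called higher and 0.318% lower in S-H. At an unadjusted p below 0.05, 1 of the 32 passed in limma, lower in S-H, against 7.45% of all genes, or 1.34% counting only lower ones. No gene of the whole table reached an adjusted p below 0.05.

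The direction was nevertheless uneven. The log2 fold change of S-H against S-L was below 0 for 25 of the 32 genes (10 of 13 mRNAs, 1 of 2 rRNAs and 14 of 17 tRNAs), against 29.4% of all genes tested. Its median was -0.27 for the mRNAs and -0.53 for the tRNAs, and 0.19 for all genes. Since that median is not 0, the values were also read after scaling by size factors computed without the mitochondrial genes, under which the median of all genes was 0.01. There 30 of the 32 genes were below 0, against 49.3% of all genes, and the medians were -0.47 for the mRNAs and -0.74 for the tRNAs. These genes are transcribed together and share their libraries, so they are not independent of each other. None was called under this scaling either, against 1.13% of all genes. An unadjusted p below 0.05 in limma was reached by 3 mitochondrial genes under this scaling. The share of all genes at that p is not given here, so this count cannot be set against it.

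Among the mRNAs, ND2 had the lowest p, with a log2 fold change of -0.59 ± 0.28 (SE, limma, adjusted p = 0.666), followed by ND1 with -0.51 ± 0.27 (limma, adjusted p = 0.678). CYTB had a log2 fold change of -0.45 ± 0.30 (limma, adjusted p = 0.720) and ATP8 of -0.59 ± 0.40 (limma, adjusted p = 0.726). For COX1 it was 0.10 ± 0.45 and for COX3 0.11 ± 0.29, and both turned to -0.11 and -0.08 under size factors. ND4 had 3.35 ± 2.31 (limma, adjusted p = 0.728), a value that rests on LW70 alone, and without LW70 the gene fell below the minimum level and could not be fitted. ND5 as a gene had -0.34 ± 0.30 (limma, adjusted p = 0.777), while its annotated row on its own had -0.73 ± 0.29 (limma over all rows, adjusted p = 0.848). ATP8 and this ND5 row were the 2 of 13 mRNA rows with every S-L pig above every S-H pig, an order found in 3.31% of all transcript rows tested, and no mRNA row had the opposite order. With rows summed per gene only ATP8 kept it among the 32 genes tested, against 2.06% of all genes.

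The 1 mitochondrial gene with a p below 0.05 was tRNA 4 (MT:4877-4945), which abuts the end of ND1. It was at 1.10, 4.77 and 0.784 FPKM in S-H and at 5.04, 5.76 and 3.32 FPKM in S-L, with LW70 inside the S-L range. The log2 fold change of this gene was -1.44 ± 0.58 (SE, limma, adjusted p = 0.66). The next gene, tRNA 5 (MT:4943-5015), which overlaps tRNA 4 by 3 bases, was at 2.08, 10.4 and 1.83 FPKM in S-H and at 6.44, 6.16 and 9.27 FPKM in S-L, with LW70 above all S-L pigs. Both depended on LW70. Without this pig 3 mitochondrial genes passed the thresholds, all lower in S-H: tRNA 4 with a log2 fold change of -2.18, tRNA 5 with -1.82 and tRNA 19 (MT:12865-12934), the gene before ND5, with -1.46 (limma, adjusted p of 0.431, 0.431 and 0.547). Of the 3, tRNA 4 also passed when each gene was divided by the summed mitochondrial mRNA of its pig (log2 fold change -1.45, limma, adjusted p = 0.641). The share of all genes called in either setting is not given here, so these counts cannot be set against it.

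**Figure D3:**
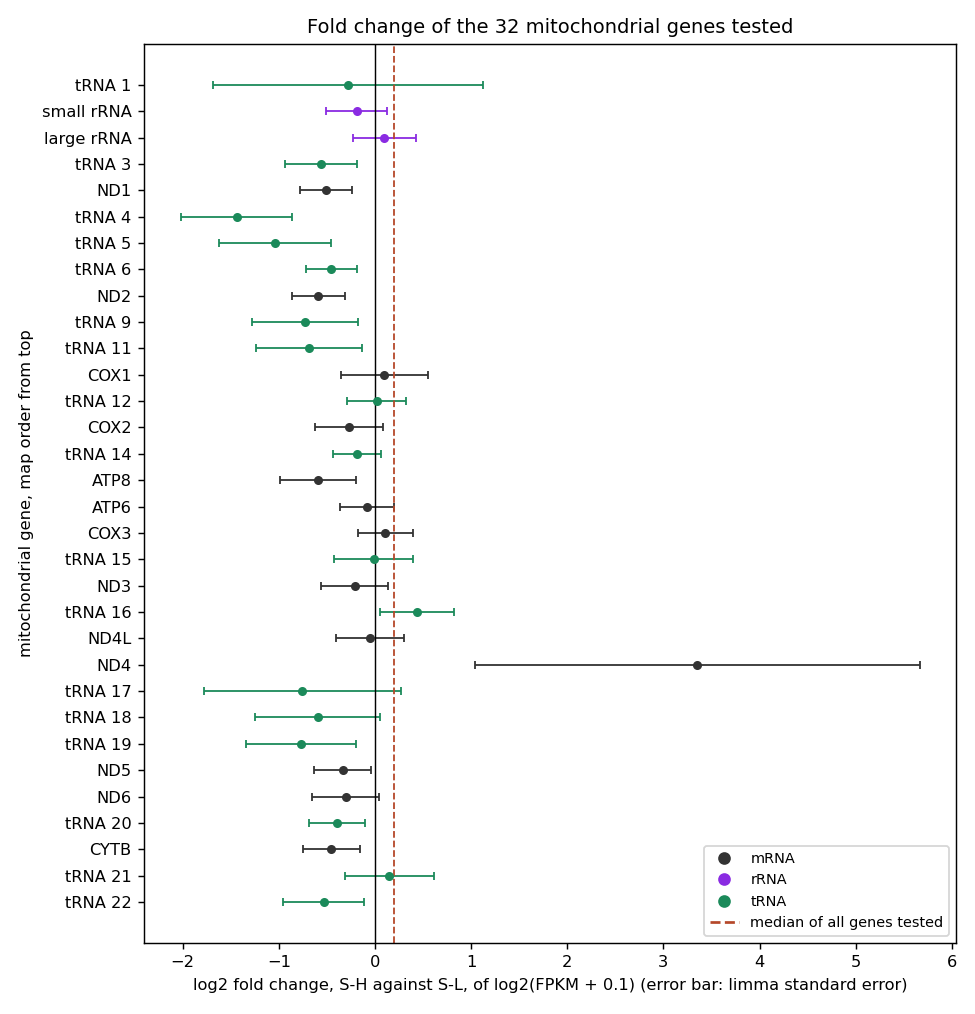
Log2 fold change of S-H against S-L (points, with the limma standard error) of the 32 mitochondrial genes tested, in map order, coloured by class, with a dashed line at the median of all genes tested (0.19). Of the 32 points, 25 lie below 0 and 30 below the dashed line, and ND4 has the widest error.

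The make-up of the mitochondrial mRNA does not depend on the scaling between libraries, so each mRNA was also expressed as a share of the summed mitochondrial mRNA of its pig. COX1 took 77.9, 79.4 and 75.2% in S-H and 70.8, 72.7 and 73.6% in S-L, with every S-H pig above every S-L pig. COX2 took 13.4, 12.7 and 14.2% in S-H and 16.6, 15.6 and 16.3% in S-L, and here every S-L pig was above. The assembled row (1.39 to 1.53% in S-H and 1.55 to 1.64% in S-L) and ATP8 (at most 0.000835%) also had every S-L pig above. Thus 4 of 14 rows separated the groups, 1 with S-H above and 3 with S-L above, orders that 4.41% and 0.961% of all genes had when divided by the same sum. Each of the 4 had p = 0.10 in the exact two-sided permutation test, the smallest p that 3 pigs against 3 allow, and an adjusted p of 0.35 over the 14 shares. Shares of 1 total are not independent, and a higher share of COX1 lowers all others. The shares, and the ratios to nuclear subunits below, use the listed levels, in which the part of the assembled row was not tested.

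CYTB, with shares of 3.02, 2.61 and 3.87% in S-H and 5.08, 3.81 and 4.04% in S-L, overlapped only in LW88, below LW119. The ratio of COX1 to COX2, looked at after the shares were seen and therefore given without a test, was 5.81, 6.23 and 5.30 in S-H and 4.27, 4.67 and 4.50 in S-L. The ratio of ND6 to the mRNAs of the other strand, between 0.00243 and 0.00568, overlapped between the groups (exact two-sided permutation test, p = 0.5, adjusted p = 1.0).

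**Figure D4:**
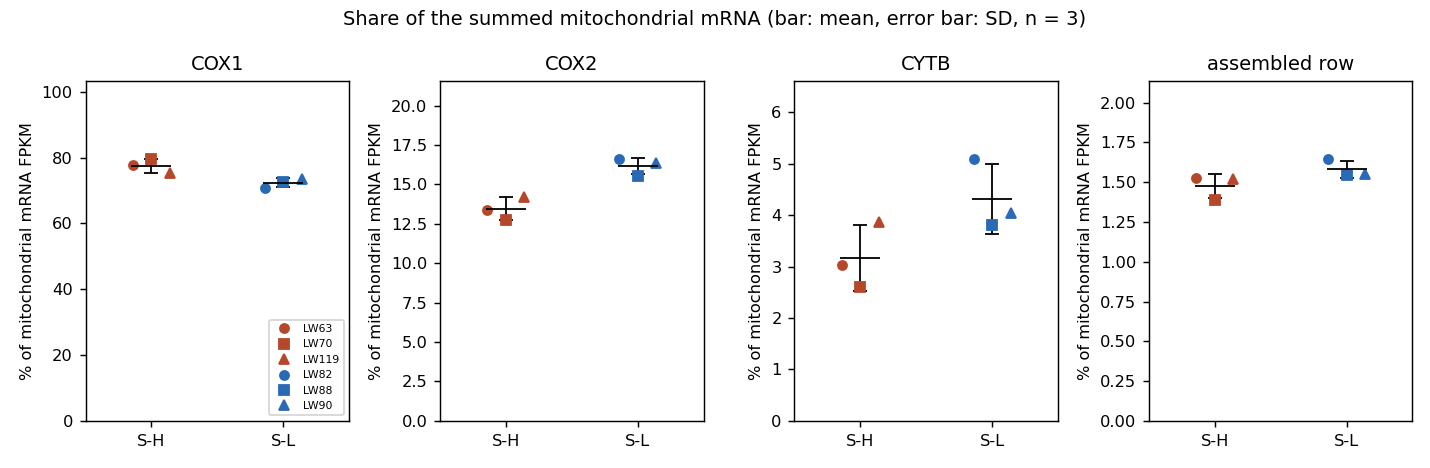
Share of COX1, COX2, CYTB and the assembled row in the summed mitochondrial mRNA of each pig, in percent, with the mean and SD of each group (n = 3). The lowest S-H share of COX1 (75.2%) lies above the highest S-L share (73.6%), and the highest S-H share of COX2 (14.2%) lies below the lowest S-L share (15.6%).

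The respiratory complexes need subunits from both genomes. The mitochondrial mRNA of each complex was therefore divided by the summed FPKM of its nuclear subunit genes in the same pig, a comparison added after the values were seen. These sums hold only the 67 of 81 listed nuclear genes that were tested. Genes such as UQCRB, UQCRH, COX6C and ATP5F1B were not found and are missing from them. In complex IV, NDUFA4 alone had a mean of 819 FPKM within a mean nuclear sum of 1945 FPKM. For complex I, with the assembled row counted in, the ratio was 0.385, 0.334 and 0.386 in S-H and 0.647, 0.549 and 0.407 in S-L. Complex III gave 0.556, 0.445 and 0.725 in S-H and 1.20, 0.785 and 0.791 in S-L, and complex IV 10.2, 9.70 and 9.73 in S-H and 13.2, 10.96 and 10.6 in S-L. In all 3 complexes every S-L pig lay above every S-H pig. The ratio of complex V, which rests on ATP6, overlapped (0.00633 ± 0.00136 in S-H and 0.00832 ± 0.00211 in S-L, SD, n = 3).

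The log2 ratio of S-H against S-L was -0.52 for complex I, -0.69 for complex III, -0.22 for complex IV and -0.26 for the 4 complexes together (each p = 0.10, exact two-sided permutation test, adjusted p = 0.125 over 5 ratios), and -0.39 for complex V (exact two-sided permutation test, p = 0.3, adjusted p = 0.3). These ratios were chosen after the values were seen, so their p-values are not those of a planned test. The ratio of the 4 complexes together is also made of the same values as the others. When the mean of log2 levels over genes took the place of sums, which gives each gene the same weight, the differences were -0.09 for complex I (p = 0.8), -0.35 for complex III (p = 0.6), -0.43 for complex IV (p = 0.1) and -0.72 for complex V (p = 0.1, exact permutation tests). Complex IV thus had the smallest p that is possible in both ways, complexes I and III only with sums, and complex V only with means of log2 levels. Equal weight also goes to rows that are near 0, high in a single pig or very uneven between pigs. In complex I, ND4 was at 171 FPKM in LW70 and at most 0.0498 FPKM elsewhere. In complex III, the nuclear gene UQCR11 was at 13.5 FPKM in LW90 and at most 0.0166 FPKM elsewhere. In complex IV, COX3 was at most 1.20 FPKM, and the nuclear gene COX4I1 was at 6.16 FPKM in LW70 and at most 1.51 FPKM elsewhere. In complex V, ATP8 was at most 0.190 FPKM, and the nuclear gene ATP5MG varied between 16.5 and 273 FPKM. How far these rows set the means was not tested.

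Each mitochondrial gene was also divided by the sum over the nuclear subunits of the 4 complexes. Of the 13 mRNAs 5 then had every S-L pig above every S-H pig (ND1, COX2, ATP8, ND5 and CYTB), as had the small-subunit rRNA and 4 of the 17 tRNAs tested, while 2.25% of all genes tested did after division by the same sum. No mitochondrial gene had the opposite order, which 1.68% of all genes had. Another 2 tRNAs with S-L above, tRNA 10 and tRNA 13, were below the minimum level. The divisor is common to all of them and overlapped between the groups itself, at 8756, 14056 and 6507 FPKM in S-H and at 7525, 8248 and 7589 FPKM in S-L. It was highest in LW70 and lowest in LW119, as were the sums of mitochondrial mRNA.

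**Figure D5:**
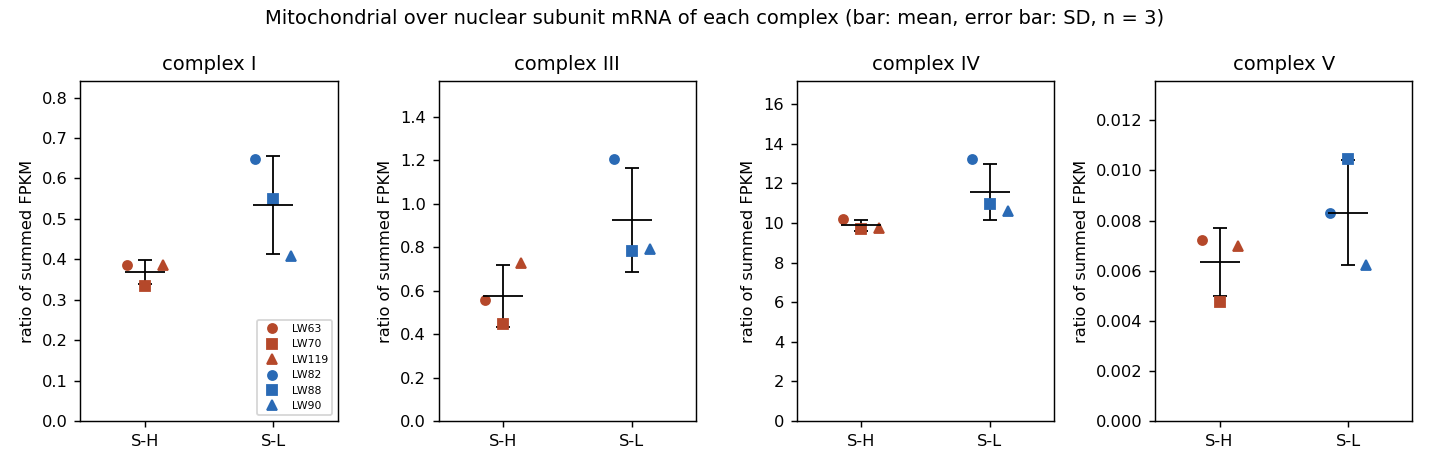
Ratio of mitochondrial to nuclear subunit mRNA (summed FPKM, over the nuclear genes tested) of complexes I, III, IV and V in each pig, with the mean and SD of each group (n = 3). The lowest S-L pig lies above the highest S-H pig in complexes I (0.407 and 0.386), III (0.785 and 0.725) and IV (10.6 and 10.2), but not in complex V.

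None of the nuclear subunit genes tested was called, either higher or lower in S-H, against 1.25% of all genes. Of 81 nuclear genes listed for subunits of complexes I, III, IV and V, 67 were tested. Of these, 59 had a log2 fold change above 0 and 8 below 0, where 29.4% of all genes were below 0. Their median was 0.26 against 0.19 for all genes. In complex IV all 12 genes tested were above 0, with a median of 0.47, but under size factors the median was 0.26 and COX5A, COX7A1 and COX7B turned to -0.12, -0.09 and -0.04. COX4I2, an isoform of subunit 4, had 0.75 (limma, adjusted p = 0.649). In complex I, NDUFA7, an accessory subunit, had 0.67 (limma, adjusted p = 0.653). These were the 2 of 67 subunit genes (2.99%, against 7.45% of all genes) with an unadjusted p below 0.05, and they are named after their values were seen. Under size factors 43 of the 67 genes were above 0, where 49.3% of all genes were below 0, and their median was 0.05, against 0.01 for all genes. Without LW119 ATP5MC3, a subunit of the membrane ring of ATP synthase, passed the thresholds (log2 fold change 1.03, limma, adjusted p = 0.538).

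Nor was any nuclear gene called among those that express the mitochondrial genome, against 1.25% of all genes. Of 85 genes listed for its transcription, for the processing and stability of its RNA and for charging its tRNAs, 80 were tested. Of these, 68 were above 0 and 12 below 0, where 29.4% of all genes were below 0. The median log2 fold change was 0.23 against 0.19 for all genes. Under size factors 49 of the 80 were above 0, where 49.3% of all genes were below 0, and the median was 0.04. TFAM, which packages mitochondrial DNA and starts its transcription, was at 7.78, 7.02 and 11.98 FPKM in S-H and at 9.42, 8.91 and 6.80 FPKM in S-L. The difference on the log2 scale was 0.07 ± 0.28 (SE, limma, adjusted p = 0.959), and it was highest in LW119, the pig in which 6 of 13 mitochondrial mRNAs were lowest. The mitochondrial RNA polymerase POLRMT had 0.23 ± 0.31 and its partner TFB2M, which helps to open the promoter, 0.19 ± 0.31. LRPPRC and SLIRP, which bind and stabilise mitochondrial mRNA, had 0.35 ± 0.25 and 0.29 ± 0.24 (limma, adjusted p of 0.734 and 0.771).

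An unadjusted p below 0.05 was found for 3 of the 80 genes (3.75%, against 7.45% of all genes), all of them among the 42 of RNA processing and stability. GTPBP3, which modifies mitochondrial tRNAs, was at 4.43, 2.99 and 3.18 FPKM in S-H and at 2.22, 1.78 and 1.23 FPKM in S-L. Its groups did not overlap, with S-H higher. Such a separation was seen in 12 of the 80 genes, GTPBP3 included, and in 11.9% of all genes tested, so it does not set GTPBP3 apart. The fold change of GTPBP3 on the log2 scale, 0.995 ± 0.31 (limma, adjusted p = 0.649), fell just short of the thresholds. Without LW82 it passed them (1.18, limma, adjusted p = 0.513). The other two were PTCD2 with 0.65 and RPUSD3 with 0.72 on the log2 scale. These 3 genes, too, are named after their values were seen, apart from the call of GTPBP3 without LW82, which the rule for named genes covers.

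Of 8 adipocyte markers, all tested, 5 were called higher in S-H: ADIPOQ, PLIN1, FABP4, CIDEC and LEP, with log2 fold changes between 1.33 and 2.04, where 0.931% of all genes were called higher. The list summed to between 513 and 1402 FPKM in S-H and between 354 and 462 FPKM in S-L. The fat cell markers LPL (log2 fold change 0.02, and -0.18 under size factors) and PLIN4 (0.56) overlapped between the groups. Within S-H, the sum of these markers was highest in LW63 and lowest in LW119.

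No marker of fibre type was called, against 1.25% of all genes. All 8 markers of slow fibres were above 0, with a median log2 fold change of 0.47 (0.26 under size factors, where MYL3 turned to -0.07 and the median of all genes from 0.19 to 0.01) and a sum between 9234 and 10870 FPKM in S-H and between 6186 and 9574 FPKM in S-L. MYH7, the slow myosin heavy chain, was at 413, 398 and 301 FPKM in S-H and at 410, 190 and 316 FPKM in S-L. All 5 fast fibre markers tested were below 0, with a median of -0.53 and a sum between 11670 and 17711 FPKM in S-H and between 13606 and 29837 FPKM in S-L. Of all genes, 29.4% were below 0, and 49.3% under size factors. MYH1, MYH2 and MYH4 were not analysed here. Of the 4 general muscle markers tested, MYLPF and TNNT3 are also in the fast fibre list. The other two differed in sign, ACTA1 with -0.97 (limma, adjusted p = 0.65) and the muscle creatine kinase CKM with 0.21. The 4 endothelial, 4 macrophage and 2 red blood cell markers tested held no called gene, with medians of 0.04 (-0.16 under size factors), 0.28 and 0.54. The part of adipocytes and of fibre type in the mitochondrial levels was not tested.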

How the data were processed

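Total RNA from the LD muscle of 6 pigs was made into strand-specific libraries depleted of ribosomal RNA and sequenced in pairs. As the study describes, the authors aligned reads with HISAT2 to the pig assembly Sscrofa11.1 and assembled and quantified transcripts with StringTie, whose versions are not given in the sources used here. The authors deposited FPKM per transcript in each pig, apart from 21104 rows with an Ensembl identifier in place of a gene symbol, which the values show to be TPM. These deposited TPM values were multiplied by 1 factor per pig (0.639 in LW119 to 0.847 in LW82), the summed FPKM of the other rows divided by 1000000 less the summed TPM. Of the 38 mitochondrial rows, 24 were in TPM and 14 in FPKM. The sources name no further scaling of the libraries, and the main results use none.

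A gene was the sum of its rows. Genes with a mean of at least 0.1 FPKM were compared between S-H and S-L in R 4.3.3 by limma 3.58.1, fitted with a trend of the variance to log2(FPKM + 0.1), and p-values were adjusted over all genes by Benjamini-Hochberg. Calls needed an unadjusted p below 0.01 and a log2 fold change of 1 or more in size, the criteria of the study. On data simulated for this comparison over 16333 genes, 190 of 200 changed genes were called, and 80 unchanged ones. The planted changes were all larger than a log2 fold change of 1, and the noise was independent between genes with an SD set by mean level. The recovery thus does not describe genes that vary together, or that vary more than others of their level, such as ND4. Recovery of a log2 fold change below 1 in size, such as the median of -0.27 for the mitochondrial mRNAs, was not tested. Sums, ratios and shares went through exact two-sided permutation tests on log2 values over 20 assignments, for which 0.10 is the smallest p, adjusted within each family. These steps used Python 3.11.15, numpy 2.4.6, pandas 2.3.3 and scipy 1.17.1.

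All mitochondrial genes were named or counted. From the lists of nuclear and marker genes, those called were named, with TFAM, POLRMT, TFB2M, LRPPRC, SLIRP and MYH7. The members and lists were chosen with earlier results of these data known, and the ratios of mitochondrial to nuclear subunits were added after the values were seen. Alternatives were other pseudocounts, minimums and scalings, a robust variance or no trend in limma, transcripts as the unit, group medians and each pig left out in turn. Sequences and read counts were not used here.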

Additional observations from a re-analysis of the deposited data

How the results depend on the processing

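No paired analysis was possible because no label ties an S-H pig to an S-L pig. The log2 fold changes of 25 mitochondrial genes (all mRNAs and rRNAs, tRNA 4, tRNA 5, tRNA 19 and the tRNAs with a mean of at least 10 FPKM) kept their sign under another pseudocount, minimum, variance model or unit and with the values as deposited, as far as they could be fitted. Under median-ratio size factors, TPM without structural RNAs and quantile normalization 4 turned below 0: the large-subunit rRNA (-0.11, -0.025 and -0.070), COX1 (-0.11, -0.027 and -0.18), tRNA 12 (-0.19, -0.11 and -0.070) and COX3 (-0.080, -0.0070 and -0.12). Under TPM ATP6 (0.054) and ND4L (0.048) turned above 0, as did the sums of mRNA (0.13), rRNA (0.091) and tRNA (0.11). With the values as deposited the sums of rRNA (0.091) and tRNA (0.11) and the ratios of rRNA (0.094) and tRNA (0.11) to mRNA turned above 0. Group medians gave 0.15 for the rRNA sum, 0.019 for the ratio of tRNA to mRNA, 0.25 for that of ND4L to ND4 and -0.050 for the share of the summed FPKM, each of the opposite sign to the main value. None of these was past a threshold in either setting, and the cause was not tested.

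The number of mitochondrial genes past the thresholds was 0 in the main setting and 1 when genes were divided by the summed mitochondrial mRNA, and with each pig left out in turn it ranged from 0 to 3, with 3 without LW70. For nuclear genes of mitochondrial gene expression it was 1 under TPM (GTPBP3, 1.14 on the log2 scale), and with each pig left out it ranged from 0 to 1, as it did for nuclear subunit genes. The share of all genes called in these other settings is not given here, so the counts cannot be set against it.

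With each pig left out in turn, these log2 values of S-H against S-L changed sign: the fold change ranged from -0.44 to 0.17 for the small-subunit rRNA, -0.10 to 0.44 for the large-subunit rRNA, -0.22 to 0.41 for COX1, -0.18 to 0.26 for tRNA 12, -0.29 to 0.15 for ATP6 and -0.47 to 0.056 for ND3. The sum ranged from -0.30 to 0.29 for mRNA, -0.26 to 0.31 for rRNA and -0.23 to 0.20 for tRNA. The ratio ranged from -0.18 to 0.10 for rRNA to mRNA, -0.092 to 0.070 for tRNA to mRNA and -5.97 to 0.24 for ND4L to ND4. The share in the mRNA ranged from -0.23 to 0.15 for ATP6, -0.15 to 0.34 for COX3, -0.38 to 0.056 for ND3, -0.35 to 0.24 for ND4L, -0.0057 to 5.89 for ND4 and -0.54 to 0.00014 for ND6. The share of all fragments ranged from -0.27 to 0.34 and that of the summed FPKM from -0.12 to 0.32. The shares of COX1 (0.08 to 0.12) and COX2 (-0.31 to -0.23) and the 5 ratios of mitochondrial to nuclear subunits kept their sign without each pig, with group medians (ratios) and without the assembled row (-0.57 for complex I and -0.26 for the 4 complexes together).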
